A study of Mus musculus with 8 samples.

Results

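The comparison described here is hair loss skin against normal skin in mice carrying a mutation of Cchcr1. The samples were chosen by their labels: all 6 samples with the mutant genotype, of 8 in the series, of which 2 came from hair loss skin and 4 from skin with a normal hair phenotype. All mice were of the C57BL/6N strain, and the series title names CRISPR/Cas9 editing as the origin of the mutants. No treatment, age, sex or sequence of the mutant allele is given in the labels. Sample titles begin with Mutant097 or Mutant113, and under each number stand 1 hair loss sample (letter S) and 2 normal skin samples (letters A and B). What the number and the letters stand for is not explained, and nothing in the labels says that the samples came from separate animals, so any p-value measures only the spread between these samples, which may be technical. The other 2 samples, wild type skin with a normal hair phenotype, have titles beginning with Wild001 and are used here as a reference level and for the estimate of spread.

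Skin holds a stratified epidermis, whose upper cells build a cornified envelope from cross-linked proteins, and hair follicles, which cycle between growth, regression and rest and make the hair shaft from hair keratins and keratin-associated proteins only while they grow. Under mouse skin lies a thin sheet of striated muscle, the panniculus carnosus, which a skin section can include to a varying extent. Wounded or inflamed epidermis switches on a set of stress keratins, small proline-rich proteins, protease inhibitors and cytokines of the interleukin 1 family. CCHCR1 is a coiled-coil protein whose gene lies near the human HLA region. Alopecia areata, the condition named in the series title, is a patchy hair loss in which immune cells gather around growing follicles.

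Each sample was hybridised to 1 single-colour Agilent array, and all arrays shared 1 slide. Levels below are log2 of the processed intensity minus the 75th percentile of the array, so 0 marks that percentile and a difference of 1 is a doubling. The percentile itself lay between 114 and 211 intensity units over the 6 mutant arrays, and 25424 to 30205 probes per mutant array were well above background by the mark of the scanner software. With so few arrays, their number sets the precision. On the slide, the 3 arrays of Mutant097 shared row 1 with the hair loss sample of Mutant113, whose 2 normal samples were in row 2, so within Mutant113 the hair phenotype and the slide row cannot be told apart. Keratinocyte markers were high throughout: Krt5 ran from 8.79 to 9.23 (median 8.90) over the 6 mutant samples and Krt10 from 7.56 to 8.12 (median 7.77). Collagen gene Col1a1 ran from 6.30 to 8.12, the fat cell gene Adipoq from 4.0 to 5.15 and the muscle actin gene Acta1 from 5.36 to 8.24, so fibroblast, fat and muscle RNA was present in every sample. X- and Y-linked transcripts separated the numbers: Ddx3y, carried on the Y chromosome, was between 1.32 and 1.52 in the 3 samples of Mutant097 and between -6.43 and -6.12 in those of Mutant113. The change within a number is therefore between samples with like levels of that transcript. A difference between Mutant097 and Mutant113 goes along with that level, so sex, animal and any other trait of the number cannot be told apart.

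No probe passed the test of hair loss against normal skin. With limma, 0 of 30417 probes (0%) had an adjusted p under 0.05, the smallest adjusted p was 0.710, and 1582 probes (5.20%) had an unadjusted p under 0.05. Levels were therefore also compared inside each number, as the hair loss sample minus the mean of the 2 normal samples of that number. A probe was counted as higher in both when this change was at least 1 in Mutant097 and in Mutant113 and each hair loss sample exceeded both of its own normal samples, and as lower in both by the mirror rule. The counts were 131 probes higher in both (0.431%) and 163 lower in both (0.536%). These are counts by size, not calls of a test, and they were 41 and 23 with the normexp background correction, all of them within the sets counted here. Leaving out normal sample A of Mutant113 left 67 probes higher in both, and leaving out sample B of Mutant113 left 225. The smaller of the 2 changes was 1.002 for the last higher probe inside the threshold and 0.998 for the first outside. Of the 131 higher and 163 lower probes, 61 and 66 were well above background on all 6 mutant arrays. The others had at least 1 of their 6 values not well above background. Hair loss and normal groups did not overlap at 106 and 140 of them, which the rule favours, so a lack of overlap is no separate support.

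The 2 numbers gave largely different changes. In Mutant097, 1489 probes were at least 1 higher in hair loss skin and 1392 at least 1 lower, while in Mutant113 1480 were at least 1 apart, of which 375 were higher and the rest lower. The shared set made up 8.80% of the higher probes of Mutant097 and 34.9% of those of Mutant113, and 11.7% and 14.8% of the lower ones. Across the probes tested, which are not independent replicates, the change in Mutant097 and the change in Mutant113 had a Pearson r of 0.02 and a Spearman rank correlation of -0.03, and 47.4% of probes had the same sign. Normal skin varied as well: its 2 samples were at least 1 apart at 1710 probes in Mutant097 and at 1076 in Mutant113.

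**Figure D1:**
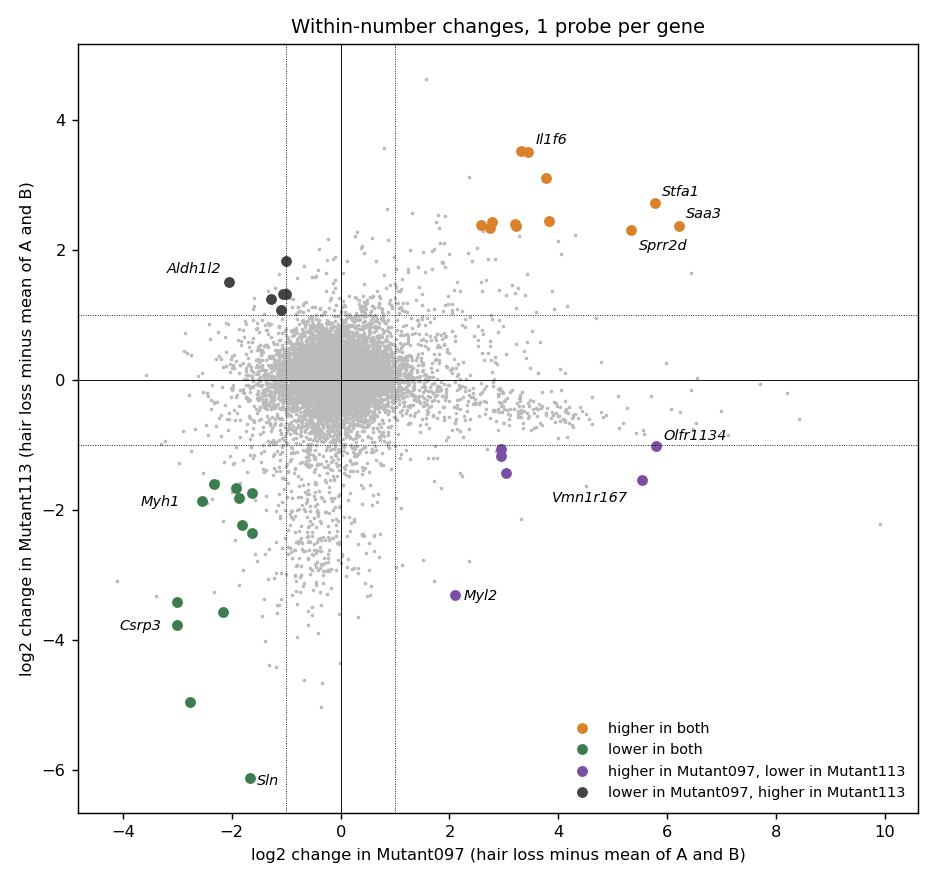
Each grey point is 1 of 14774 genes (1 probe per gene), placed by its hair loss minus normal change (log2) in Mutant097 on the x axis and in Mutant113 on the y axis, with dotted lines at 1 and -1 and coloured points for the 12 genes higher and 12 lower in both and the 6 each way of opposite sign that the naming rule picked. The coloured groups occupy the 4 corners of the cloud, from Il1f6 (3.44 and 3.51) to Csrp3 (-3.01 and -3.76).

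Genes that build or protect the upper epidermis lay among those higher in both. With 1 probe per gene, 88 of 14774 genes were higher in both (0.596%) and 87 were lower (0.589%). Of 25 epidermal differentiation complex genes tested (32 listed), 10 were higher in both and none lower, and the median change was 1.19 in Mutant097 and 1.03 in Mutant113, against -0.05 and 0.06 over all genes. Of 15 stress and wound keratinocyte genes (18 listed), 4 were higher in both, with medians of 2.59 and 1.13. This list and the one before it share at least Sprr1b, the gene with the largest average change in each, so their counts are not separate. Of 18 stefins, antimicrobial and acute phase genes (21 listed), 8 were higher in both, with medians of 1.52 and 0.77. In tissue RNA, a change in the number of cells of a type and a change in RNA per cell cannot be told apart.

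Small proline-rich proteins are precursors that transglutaminases cross-link into the cornified envelope, and 6 of the 10 tested were higher in both, a family chosen after its values were seen. The promoters of 3 of the Sprr2 genes are shown because these genes were higher in both by the rule and belong to 1 cluster on chromosome 3. The sequences are the 200 bases before the annotated start from RefSeq (GRCm38.p6), 5′ to 3′ on the plus strand, at chr3:92338940-92339139 for Sprr2d, chr3:92351943-92352142 for Sprr2e and chr3:92407791-92407990 for Sprr2i. Capitals mark the TATA box letters TATAAA and the AP-1 letters TGANTCA.
Sprr2d: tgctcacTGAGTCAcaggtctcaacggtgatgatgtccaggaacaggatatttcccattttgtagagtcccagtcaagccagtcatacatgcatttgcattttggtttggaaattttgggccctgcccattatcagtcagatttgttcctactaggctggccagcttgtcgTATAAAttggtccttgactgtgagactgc
Sprr2e: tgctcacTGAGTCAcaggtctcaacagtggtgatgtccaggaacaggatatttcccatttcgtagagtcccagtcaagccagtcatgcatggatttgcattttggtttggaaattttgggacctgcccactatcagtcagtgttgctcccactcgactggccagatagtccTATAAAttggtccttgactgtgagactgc
Sprr2i: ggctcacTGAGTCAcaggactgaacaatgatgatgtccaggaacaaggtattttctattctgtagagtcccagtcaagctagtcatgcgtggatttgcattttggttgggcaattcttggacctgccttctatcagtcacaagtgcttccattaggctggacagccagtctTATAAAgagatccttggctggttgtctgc
All 3 carried the first motif at position -29 and the second at position -193, counted from the annotated start. Sprr2d and Sprr2e were identical at 184 of 200 bases (92%), Sprr2d and Sprr2i at 79.5%, and Sprr2e and Sprr2i at 80.5%. Searched on both strands over the 250 bases before the start, TATAAA occurred in 12.4% of 32851 promoters, TGANTCA in 6.75% and both in 1.21%, while 7 of 10 Sprr2 promoters held both. The search allowed any overlap between motifs, and a match is only a match of letters. Because the Sprr2 genes are near-identical copies, a probe of one may also bind transcripts of another, and the single-gene values below are uncertain to that extent.

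Sprr2d stood at 0.06 in the hair loss sample of Mutant097 and -0.32 in that of Mutant113, against -5.14 (A) and -5.43 (B) in normal skin of Mutant097 and -4.42 (A) and -0.82 (B) in normal skin of Mutant113. Both hair loss samples were above all 4 normal samples, but sample B of Mutant113 was close below. The change was 5.34 in Mutant097, where the normal samples were not well above background and the difference is at least 13.5-fold, and 2.30 in Mutant113 (average 3.82 with an SE of 1.16, limma adjusted p = 0.784). "At least" means that the dim side was set, array by array, at its own value or, if higher, at the dimmest probe that was still well above background on that array. Sample A of Mutant113 was also not well above background for Sprr2d, Sprr2e, Sprr2g, Lce3f, Saa3, Col10a1 and Acod1, so their changes in Mutant113 rest partly on an undetected value. Sprr2e gave -2.16 and -1.77 in hair loss skin, -5.77 (A) and -6.19 (B) in normal Mutant097, and -6.38 (A) and -2.06 (B) in normal Mutant113. Its groups overlapped, since normal sample B of Mutant113 exceeded the hair loss sample of Mutant097. Its changes were 3.82 and 2.45, the first at least 2.90-fold. Sprr2i and Sprr2g, chosen after their values were seen, had changes of 1.91 and 2.10, and of 4.30 (at least 7.90-fold) and 2.24. The Sprr2i groups overlapped, and its lowest normal sample in each number, at -5.94 (B of Mutant097) and -6.11 (A of Mutant113), was not well above background, so the size of both changes is uncertain.

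Late cornified envelope proteins, small envelope components encoded in the same complex, were higher in both for 6 of 16 genes tested, a family chosen after its values were seen. Lce3f stood at -1.67 and -1.83 in hair loss skin, -4.31 (A) and -4.53 (B) in normal Mutant097, and -5.39 (A) and -2.94 (B) in normal Mutant113. Its groups did not overlap and its changes were 2.75, at least 4.07-fold, and 2.33 (average 2.54, SE 0.61, limma adjusted p = 0.710). Lce1f, also chosen after its values were seen, was the steadiest of the family, at 5.57 and 5.87 against 4.19 and 4.08 (A and B of Mutant097) and 4.24 and 4.64 (A and B of Mutant113). Every normal Lce1f value was below both hair loss values, and the change was 1.43 in Mutant097 and 1.44 in Mutant113. Lce1g differed by 1.80 and 2.33, and Hrnr, which encodes the envelope protein hornerin, by 1.08 and 1.37, both chosen after their values were seen.

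Stress keratins were further above normal skin in Mutant097 than in Mutant113. Krt16, an injury keratin, stood at 6.26 in hair loss skin of Mutant097 against 2.60 (A) and 1.59 (B), and at 5.76 in Mutant113 against 3.32 (A) and 5.94 (B). Its groups overlapped through sample B of Mutant113, and the changes were 4.17 and 1.13. Krt6a behaved alike, with changes of 2.59 and 0.77. Neither of these keratins was higher in both by the rule. Klk6, a serine protease of the skin chosen after its values were seen, was at 5.60 and 5.07 in hair loss skin, with normal values of 2.26, 2.08, 1.94 and 4.93 in A and B of Mutant097 and A and B of Mutant113. Only sample B of Mutant113 came near the hair loss level, and the changes were 3.43 and 1.63.

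Stefins, which inhibit cysteine proteases, were higher in both for 5 of 10 tested, a family chosen after its values were seen. Csta3, counted among them, was not well above background on any array of Mutant097, so its value there is no measured difference. Stfa1 stood at 4.37 and 4.60 in hair loss skin, at -0.82 (A) and -1.98 (B) in normal Mutant097, and at 0.48 (A) and 3.29 (B) in normal Mutant113. Its groups did not overlap, and the changes were 5.77 and 2.72 (average 4.24, SE 1.29, limma adjusted p = 0.784). Stfa3 was at 4.21 and 4.64 against 2.30, 2.15, 1.99 and 3.41 in the same order, with changes of 1.99 and 1.94. The stefin A genes are close copies, so their probes may share targets. The acute phase gene Saa3 stood at 1.51 and -0.33 in hair loss skin, -3.67 (A) and -5.73 (B) in normal Mutant097, and -4.64 (A) and -0.76 (B) in normal Mutant113. Both hair loss values lay above all 4 normal values, though the one of Mutant113 only narrowly above its sample B, and the changes from the mean of A and B were 6.21 in Mutant097 (at least 37.0-fold) and 2.37 in Mutant113. Slpi, a secreted inhibitor of neutrophil proteases chosen after its values were seen, had changes of 2.70 and 1.87.

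Il1f6 encodes a cytokine of the interleukin 1 family that stressed keratinocytes release. It stood at 0.89 and 1.84 in hair loss skin, -1.97 (A) and -3.13 (B) in normal Mutant097, and -3.19 (A) and -0.16 (B) in normal Mutant113. The groups did not overlap, and the changes were nearly equal, 3.44 (10.9-fold) and 3.51 (11.4-fold), with an average of 3.48 (SE 0.97, limma adjusted p = 0.758). Gasdermins form membrane pores, and 4 of the 8 tested were higher in both, a family chosen after its values were seen. One of them, Gsdmc4, was not well above background on any array of Mutant097, so its value there is no measured difference. Gsdmc3 stood at -0.22 and 1.36 against -4.21 (A) and -3.76 (B) in Mutant097 and -3.48 (A) and -0.03 (B) in Mutant113. Its groups overlapped at sample B of Mutant113, and the changes were 3.77, at least 10.6-fold, and 3.11. A second Gsdmc3 probe disagreed in size, with changes of 0.61 and 0.58, under the threshold in both numbers. Gsdmc (1.69 and 1.98) and Gsdma2 (1.87 and 1.82), chosen after their values were seen, had closely matched changes, and the Gsdmc genes are near-identical copies whose probes may bind each other's transcripts.

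Olah, an enzyme that releases fatty acids from fatty acid synthase, stood at -0.22 and 0.32 in hair loss skin, -3.10 (A) and -3.96 (B) in normal Mutant097, and -4.43 (A) and -1.98 (B) in normal Mutant113. Both hair loss samples were above every normal sample, and the changes were 3.31 and 3.53 (average 3.42, SE 0.63, limma adjusted p = 0.710). Sample B of Mutant097 and sample A of Mutant113 were not well above background for Olah, so the size of both changes is uncertain. Col10a1, a short-chain collagen known from growing cartilage, gave -2.43 and -2.34 against -5.45 (A) and -5.85 (B) in Mutant097 and -5.93 (A) and -3.48 (B) in Mutant113. Its groups did not overlap, with changes of 3.22, at least 2.40-fold, and 2.36. Teddm3 had changes of 2.58 and 2.39. Of 14 sebaceous gland genes tested, 1 was higher and 1 lower in both, with list medians of 0.34 in Mutant097 and 0.30 in Mutant113. The higher one was Elovl3, a fatty acid elongase, with changes of 1.49 and 1.32. The lower one was the desaturase Scd3, at -1.16 and -1.09, both chosen after their values were seen.

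**Figure D2:**
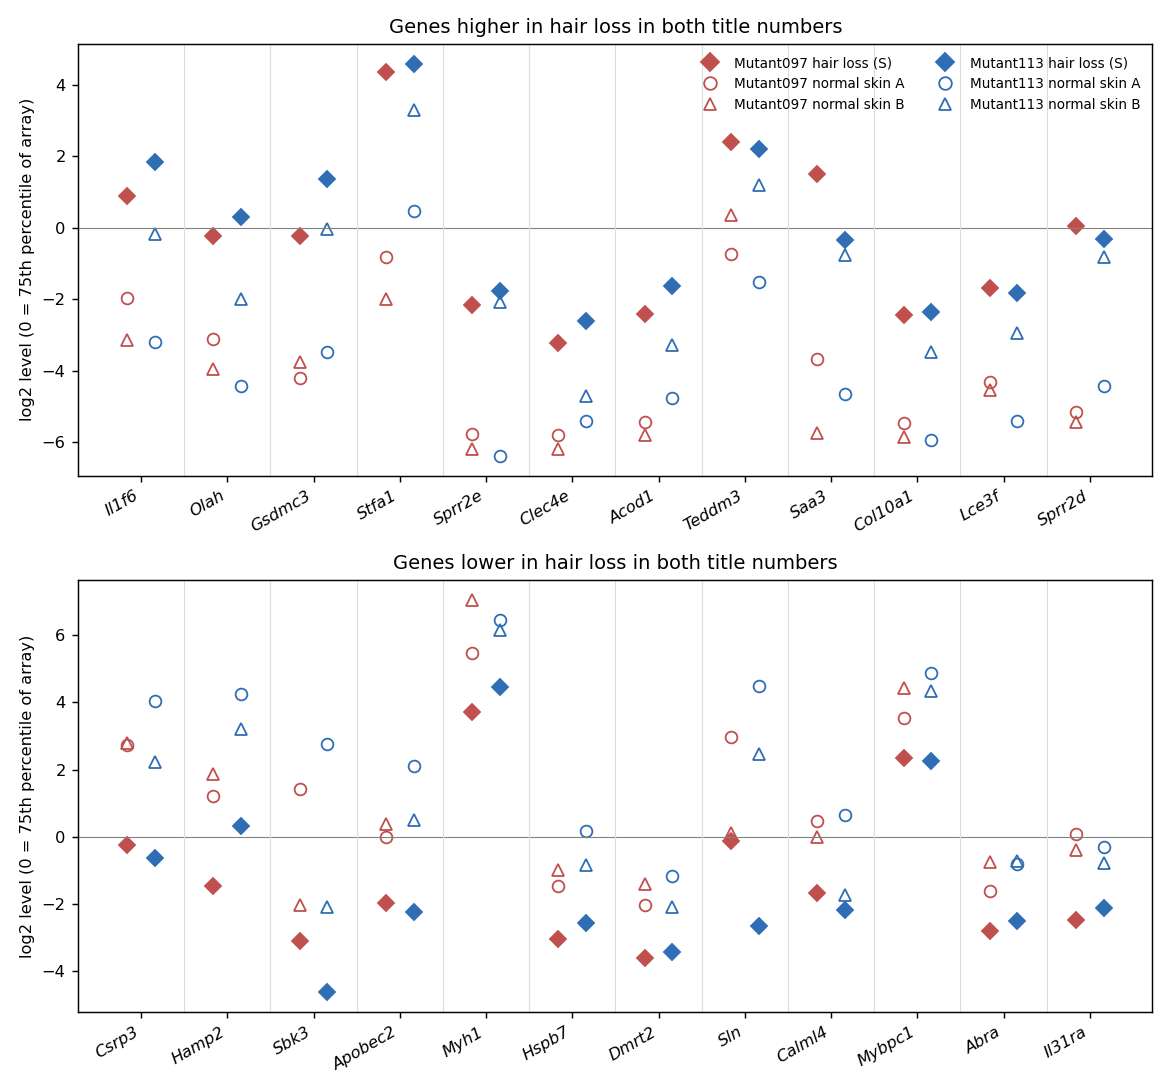
Points give the level (log2, relative to the 75th percentile of the array) of the 12 genes higher and the 12 lower in both numbers that the naming rule picked, with Mutant097 in red and Mutant113 in blue, filled diamonds for hair loss, open circles for normal sample A and open triangles for normal sample B. In the higher genes normal sample B of Mutant113 is usually the normal point nearest to hair loss, as for Sprr2e at -2.06 against -2.16 in hair loss skin of Mutant097.

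Several genes known from activated myeloid cells were higher in both. Over all genes, 88 of 14774 (0.596%) were higher in both. Of 10 neutrophil genes tested, 1 was higher in both, with medians of 0.66 in Mutant097 and 0.11 in Mutant113. That neutrophil gene, Cxcr2, named after its values were seen, was not well above background on any array of Mutant097. Of 17 macrophage, dendritic cell and mast cell genes tested, 1 was higher in both, with medians of -0.18 in Mutant097 and 0.66 in Mutant113. The 1 gene of this list was Fcer1a, the alpha chain of the IgE receptor (1.72 and 2.01), named after its values were seen. Of the 7 Clec4 lectins tested, a family chosen after its values were seen, 3 were higher in both, with medians of -0.02 and 0.71. Clec4e encodes Mincle, a receptor of macrophages for microbial and dead-cell lipids. It stood at -3.21 and -2.61 in hair loss skin, -5.79 (A) and -6.20 (B) in normal Mutant097, and -5.40 (A) and -4.70 (B) in normal Mutant113. No normal sample was well above background, so the difference was at least 1.40-fold in Mutant097 and at least 2.88-fold in Mutant113. The changes were 2.79 and 2.44 (average 2.61, SE 0.40, limma adjusted p = 0.710). The groups did not overlap, but the probe passed the filter only through the 2 hair loss arrays, so this is no separate support. Acod1, the enzyme that makes itaconate in activated macrophages, had changes of 3.21, at least 2.44-fold, and 2.39. Its hair loss values of -2.41 and -1.63 exceeded all normal values, the highest being -3.28 in sample B of Mutant113.

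Further genes, not all of them particular to myeloid cells, were chosen after their values were seen. Trem2, a lipid receptor of macrophages, stood at 1.86 and 2.28 against -0.75 (A) and -0.22 (B) in Mutant097 and -0.57 (A) and 1.22 (B) in Mutant113, with no overlap and changes of 2.34 and 1.96. Clec4d, which pairs with Mincle, had changes of 3.28 and 2.21, and Clec4n, the receptor Dectin-2, 1.38 and 1.24. Timp1, an inhibitor of matrix proteases, differed by 2.14 and 1.5, and Fcgr4, an antibody receptor, by 1.68 and 1.71. Chil1, a chitinase-like protein of activated macrophages and epithelium, differed by 2.68 and 1.54. Of 26 chemokine genes, 2 were higher in both, against 0.596% of all genes, and the list medians were 0.23 and 0.42. Those were Ccl3 (1.91 and 2.53) and Ccl4 (2.59 and 1.37), attractants for monocytes and T cells, named after their values were seen. No sample of Mutant097 was well above background for Ccl3, so its value there is no measured difference.

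How far hair loss skin stood above normal skin depended on which normal sample it was set against. Over the 131 probes higher in both, the hair loss sample of Mutant113 was a median of 2.09 above sample A and 0.93 above sample B, while the hair loss sample of Mutant097 was 1.89 above A and 2.02 above B. Sample B of Mutant113 was the nearest normal sample in 115 of the 131. It was nearest to hair loss although its hair phenotype is labelled normal. The mean level of the stress keratinocyte list was 2.61 in both hair loss samples, 2.30 in that sample, 0.47 in sample A of Mutant113, and -0.03 (A) and -0.37 (B) in Mutant097. Without sample B of Mutant113, limma called 11 probes at an adjusted p under 0.05, of which 9 belonged to those higher or lower in both. Leaving out the normal sample nearest to hair loss in the set higher in both favours that set, so the overlap is no separate support. The called genes included Sprr2d (4.87), Sprr2e (4.15), Sprr2g (4.13), Col10a1 (3.36), Klk6 (3.24), Clec4d (3.23), Chil1 (2.62) and Trem2 (2.58), with limma adjusted p between 0.0209 and 0.0405. Without the hair loss sample of Mutant113, which leaves 1 hair loss sample assumed to vary like the other groups, limma called 9 probes, none of them higher or lower in both. Without sample A of Mutant113, the genes higher in both numbered 1 of the stress keratinocyte list, 4 of the epidermal differentiation complex and 2 of the stefin list, in place of 4, 10 and 8.

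**Figure D3:**
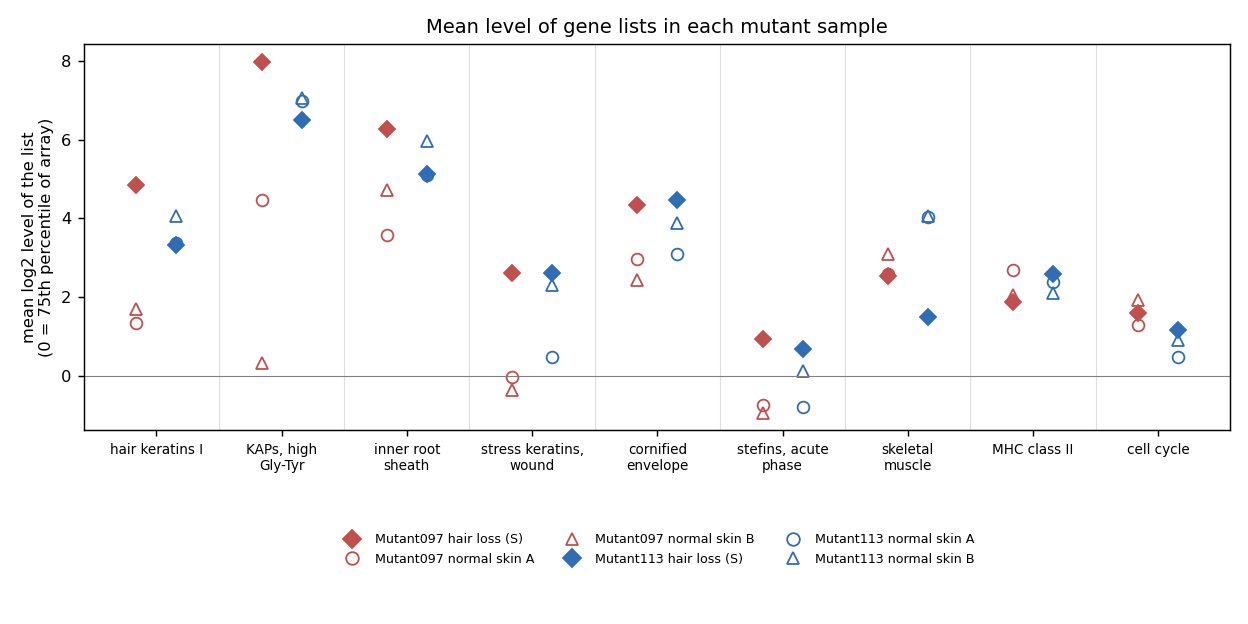
Mean level (log2, relative to the 75th percentile of the array) of selected gene lists in each sample, with Mutant097 in red and Mutant113 in blue, filled diamonds for hair loss, open circles for normal sample A and open triangles for normal sample B. The stress keratinocyte list is at 2.61 in both hair loss samples and at 2.30 in normal sample B of Mutant113, while the hair shaft lists are highest in the hair loss sample of Mutant097.

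Muscle genes lay among those lower in both, 8 from the contractile list and 1 from the list of regulators, of 87 genes in all. Csrp3, a protein of the muscle Z-disc, stood at -0.25 and -0.63 in hair loss skin, 2.73 (A) and 2.78 (B) in normal Mutant097, and 4.04 (A) and 2.24 (B) in normal Mutant113. Hair loss lay below all 4 normal samples and below both wild type samples (2.08 and 4.16), and the changes were -3.01 and -3.76 (average -3.38, SE 0.64, limma adjusted p = 0.710). Myh1, a fast myosin heavy chain, was at 3.71 and 4.45 against 5.47 (A) and 7.05 (B) in Mutant097 and 6.45 (A) and 6.15 (B) in Mutant113. Its groups did not overlap, with changes of -2.55 and -1.85. Mybpc1, the slow form of myosin-binding protein C, stood at 2.36 and 2.25 against 3.54 (A) and 4.44 (B) in Mutant097 and 4.87 (A) and 4.34 (B) in Mutant113, again without overlap and with changes of -1.63 and -2.35.

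Smaller regulators of muscle were lower as well. Apobec2, a muscle member of the deaminase family, had changes of -2.16 and -3.57, and the small heat shock protein gene Hspb7 of -1.81 and -2.23. Abra, an actin-binding protein of striated muscle, had changes of -1.63 and -1.73, and Dmrt2, a transcription factor of the embryonic muscle and skin precursor, of -1.87 (at least 3.0-fold lower) and -1.81. Sln encodes sarcolipin, which inhibits the calcium pump of muscle. It stood at -0.12 and -2.64 against 2.98 (A) and 0.12 (B) in Mutant097 and 4.50 (A) and 2.46 (B) in Mutant113. Hair loss was lowest in each number, with a change of -1.67 in Mutant097 and -6.12 in Mutant113. For Sbk3, a kinase, the changes were -2.77 and -4.95, and the latter is at least 26.8-fold lower.

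The muscle lists as a whole were lower mainly in Mutant113. Of 38 muscle contractile genes tested (40 listed), 8 were lower in both and none higher, and the change was positive in 2 of the 38 in Mutant113 but in 13 in Mutant097. Their median was -2.67 in Mutant113 and -0.18 in Mutant097. For comparison, 8873 of all 14774 genes had a positive change in Mutant113 and 6667 in Mutant097. The mean level of the list was 1.5 in hair loss skin of Mutant113 against 4.04 (A) and 4.05 (B), and 2.53 in hair loss skin of Mutant097 against 2.59 (A) and 3.09 (B). Only the hair loss sample of Mutant113 stood clearly apart. Myh4, a fast myosin heavy chain, stood at 8.23 in Mutant097 hair loss skin against 7.57 (A) and 7.45 (B), and at 6.33 in Mutant113 against 8.70 (A) and 8.69 (B). Its change was 0.72 in Mutant097 and -2.36 in Mutant113, a difference of -3.08. Leaving out the hair loss sample of Mutant113 turned the average change of Myh4 to 0.13. Of the 9 regulators of muscle tested, 1 was lower in both. Muscle markers moved with the hair loss sample of Mutant113 and their part in other results of that number was not tested.

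Genes that mark position along the body also lay among those lower in both, all chosen after their values were seen. Of 29 Hox genes tested, which pattern the body axis and keep regional levels in adult skin, 3 were lower in both and none was higher. Over all genes, 87 of 14774 (0.589%) were lower in both. Of the 29, 15 were negative and 1 was positive in both numbers, and the share of all genes negative in both was not computed. Hoxa7 stood at 2.59 and 0.63 against 3.57 (A) and 3.82 (B) in Mutant097 and 2.89 (A) and 2.59 (B) in Mutant113. Its change was -1.11 and -2.11, and the hair loss value of Mutant097 met the lowest normal value of Mutant113. Hoxa10 was not well above background in either hair loss sample and was at least 4.54-fold lower in Mutant097 and at least 2.25-fold lower in Mutant113, where sample B was not well above background either, with changes of -4.12 and -3.09. Hoxc9 had changes of -1.19 and -4.42 with overlapping groups. The median over the 15 genes of Hox groups 6 to 10 was -1.02 in Mutant097 and -0.86 in Mutant113, while over the 13 of groups 1 to 5 it was -0.51 and 0.29. Average changes in groups 6 to 10 ran from -3.60 to 1.38, and the 1 gene tested of groups 11 to 13 had changes of 1.45 and -0.15. Tbx3, a transcription factor of limb patterning, had changes of -1.15 and -1.92. The body site of each sample is not given in the labels, so site and hair phenotype cannot be told apart.

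Of 18 BMP and FGF hair cycle signals tested, 1 was lower in both, with medians of -0.15 in Mutant097 and -0.04 in Mutant113. Of 21 Wnt ligands, inhibitors and targets, 1 was lower in both, with medians of -0.33 and -0.12. The same held for 1 of 27 cytokines and receptors named for alopecia areata. No gene of these lists was higher in both, and 87 of all 14774 genes (0.589%) were lower in both. Il31ra, a receptor subunit for an itch cytokine, stood at -2.47 and -2.13 against 0.07 (A) and -0.39 (B) in Mutant097 and -0.30 (A) and -0.77 (B) in Mutant113. Groups did not overlap, and the wild type values of 0.14 and 1.17 were also above hair loss, with changes of -2.32 and -1.60 (average -1.96, SE 0.33, limma adjusted p = 0.710). Fgf18, a growth factor that holds follicles in rest, was at 0.05 and 0.78 against 2.68 (A) and 1.71 (B) in Mutant097 and 2.41 (A) and 1.66 (B) in Mutant113. Every normal value exceeded both hair loss values, with changes of -2.14 and -1.26, a gene chosen after its values were seen. Sfrp4, a secreted Wnt inhibitor chosen the same way, had changes of -1.67 and -1.15. Hamp2, a relative of the iron hormone hepcidin, had changes of -3.0 and -3.41, and its highest hair loss value of 0.31 was below its lowest normal value of 1.2. Calml4, a calmodulin-like protein, had changes of -1.91 and -1.66 with overlapping groups.

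Hair shaft genes went opposite ways. All 9 type I hair keratins tested had a positive change in Mutant097 and a negative one in Mutant113, with medians of 3.48 and -0.40, and none was higher or lower in both. Among all 14774 genes, 6667 changes were positive in Mutant097 and 8873 in Mutant113. Krt81, a type II hair keratin, stood at 6.78 in hair loss skin of Mutant097 against 2.52 (A) and 2.18 (B), and at 5.03 in that of Mutant113 against 5.29 (A) and 5.71 (B). In Mutant097 hair loss skin was thus far above its normal skin and in Mutant113 it was slightly below. The changes were 4.43 and -0.48, a difference of -4.91. Krt34 and Krt86 had the same pattern, with changes of 4.17 and -0.51, and of 4.03 and -0.41.

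Keratin-associated proteins, which fix the keratin filaments of the shaft, followed the same split. The 15 high glycine-tyrosine members tested had medians of 5.55 in Mutant097 and -0.58 in Mutant113, the 13 high sulphur members 4.09 and -0.47, and the 19 ultrahigh sulphur members 3.63 and -0.45. Inner root sheath genes, which encase the growing shaft, had medians of 2.16 and -0.41 over 10 genes. Tchh, the inner root sheath protein trichohyalin, stood at 8.68 in Mutant097 hair loss skin against 5.93 (A) and 7.17 (B), and at 7.81 in Mutant113 against 7.80 (A) and 8.44 (B). Normal skin of Mutant097 held the 2 lowest Tchh values. The type I hair keratins had mean levels of 4.86 and 3.32 in hair loss skin, 1.34 (A) and 1.70 (B) in normal Mutant097 and 3.37 (A) and 4.05 (B) in normal Mutant113. In wild type skin that mean was -3.86 and -4.66, so all 6 mutant samples were above both wild type samples.

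**Figure D4:**
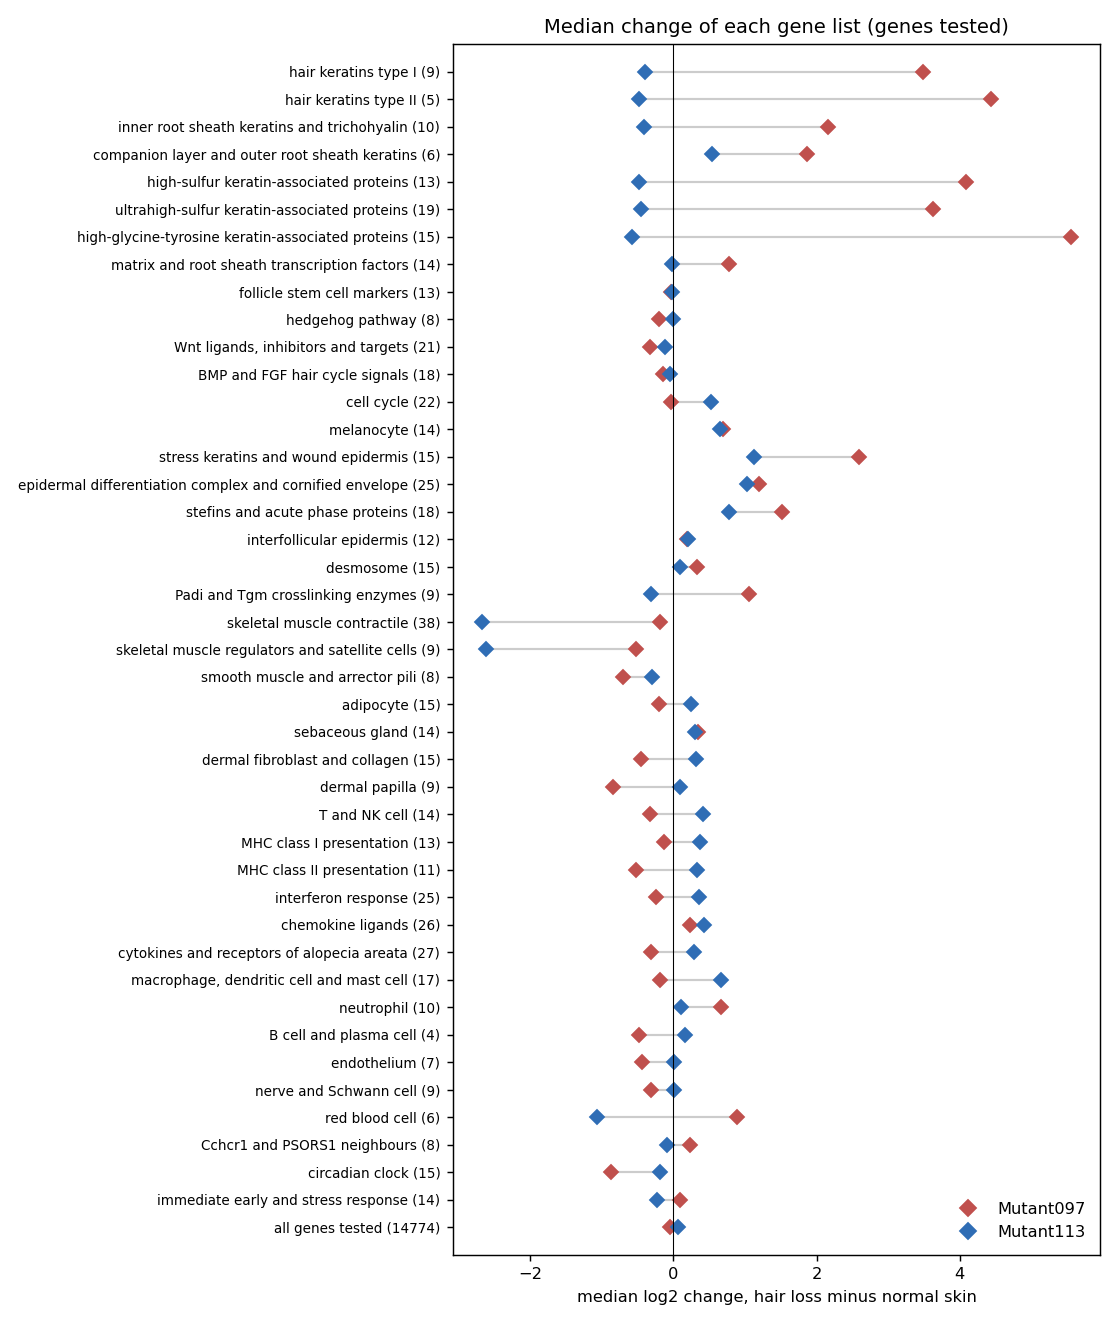
Median change (log2, hair loss minus normal) of each gene list in Mutant097 and in Mutant113, with Mutant097 in red and Mutant113 in blue, the number of genes tested in parentheses and a line at 0. Hair shaft lists lie far right of 0 in Mutant097 and just left of it in Mutant113 (type I hair keratins 3.48 and -0.40), muscle contractile genes are low in Mutant113 (-2.67), and the stress keratinocyte list is above 0 in both.

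No probe passed the test of the difference between the 2 numbers: limma called 0 of 30417 (0%), the smallest adjusted p was 0.0714, and 2889 probes had an unadjusted p under 0.05. With the normexp background correction limma called 287 probes for this difference, with quantile normalization 3, and without normal sample A of Mutant097 25. Each number has 1 hair loss array, so the spread in this fit comes only from pairs of normal samples A and B, wild type included. It holds no spread between hair loss samples. By size, 84 probes were at least 1 higher in Mutant097 and at least 1 lower in Mutant113, and 31 were the reverse. Among named genes, Vmn1r167, annotated as a vomeronasal receptor, had changes of 5.53 (at least 12.7-fold) and -1.54. Olfr1134, annotated as an olfactory receptor, stood at 6.26 in Mutant097 hair loss skin against 2.03 (A) and -1.11 (B), and at 4.41 in Mutant113 against 5.10 (A) and 5.73 (B). The order of its 6 values was that of the mean of the high glycine-tyrosine keratin-associated proteins, which was 8.00, 4.47 and 0.31 in S, A and B of Mutant097 and 6.5, 6.98 and 7.07 in those of Mutant113. Cacng6, a calcium channel subunit, had changes of 3.05 and -1.42, and Myl2, a myosin light chain of slow muscle and heart, of 2.10 and -3.30, with sample B of Mutant097 not well above background.

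The genes named for the reverse, lower in Mutant097 and higher in Mutant113, included Lox, Aspn and Pdgfrl. Of 15 dermal fibroblast and collagen genes tested, none was higher or lower in both, with medians of -0.45 and 0.31. Lox, the enzyme that cross-links collagen, stood at -0.54 in Mutant097 hair loss skin against 0.68 (A) and 0.80 (B), and at -0.92 in Mutant113 against -2.74 (A) and -1.61 (B). Hair loss skin was the lowest of the 3 samples in Mutant097 and the highest of the 3 in Mutant113, with changes of -1.28 and 1.25. A second Lox probe gave -0.56 and 1.02, so its change in Mutant097 was under the threshold. Aspn, a small matrix proteoglycan, had changes of -1.10 and 1.07, and Pdgfrl, a receptor-like protein, -1.0 and 1.32. Ctsg, a serine protease of mast cells and neutrophils, had changes of -1.06 (at least 2.09-fold lower) and 1.33. Aldh1l2, a mitochondrial folate enzyme, had changes of -2.06 and 1.5, the latter at least 1.29-fold since neither normal sample of Mutant113 was well above background. Mlph, a melanosome transport protein, had changes of -1.01 (at least 1.81-fold lower) and 1.83, with sample A of Mutant113 also not well above background.

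Lists tied to alopecia areata did not separate hair loss from normal skin in the same direction in both numbers. Major histocompatibility class II genes had a negative change in all 11 tested in Mutant097 and a positive one in 10 of 11 in Mutant113, with medians of -0.53 and 0.34. Over all 14774 genes tested, the change was positive in 6667 in Mutant097 and in 8873 in Mutant113. H2-Ab1, a class II chain, had changes of -0.56 and 0.22. T and natural killer cell genes had medians of -0.32 and 0.41 over 14 tested, class I genes -0.13 and 0.38 over 13, and interferon response genes -0.24 and 0.36 over 25. Cd3e, a subunit of the T cell receptor complex, had changes of -0.43 and 0.01, and its level over the 6 mutant samples ran from 1.80 to 2.55 (median 1.99). The list of 27 cytokines and receptors named for alopecia areata tested had 1 gene lower in both, Il31ra, and none higher, with medians of -0.31 and 0.28. Cd8a, which marks cytotoxic T cells, was not among the probes tested because it was well above background on fewer than 2 arrays.

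Other groups differed less or differed by number. Positive changes over all 14774 genes numbered 6667 in Mutant097 and 8873 in Mutant113. Cell cycle genes had medians of -0.03 and 0.52, with positive changes in 9 and in all 22 of the 22 tested, and Mki67, a marker of dividing cells, had changes of -0.04 and 0.45, with an average whose sign turned when the slide row was a block (-0.34). Red blood cell genes had medians of 0.89 and -1.07 over 6 genes. Clock genes had positive changes in 1 and in 4 of the 15 tested, with medians of -0.87 and -0.18, and Dbp, a clock-controlled transcription factor, had changes of -1.40 and -0.38. Melanocyte genes had medians of 0.69 and 0.65 over 14 genes, none of them higher or lower in both by the rule. Mcpt4, a protease of connective tissue mast cells, was at 4.96 in Mutant097 hair loss skin against 5.05 (A) and 4.95 (B), and at 6.37 in Mutant113 against 5.35 (A) and 5.41 (B). The hair loss sample of Mutant113 was the high one, and without it the average change was -0.23.

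The mutated gene itself gave like levels in both phenotypes. Cchcr1 stood at 0.49 and -0.01 in hair loss skin, 0.18 (A) and 0.32 (B) in normal Mutant097, and -0.04 (A) and 0.03 (B) in normal Mutant113. The hair loss values lay within or near the normal range of their own number, and the average change was 0.12 (SE 0.20, limma adjusted p = 0.999). Where the probe lies relative to the edited site is not given in the sources used here, so its level does not check the genotype.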

How the data were processed

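Total RNA from 8 mouse skin samples was labelled with Cy3 and hybridised to single-colour Agilent arrays, 1 per sample, per the labels' protocols. The deposited scanner tables hold a processed intensity per spot, background-corrected by Agilent Feature Extraction 11.5.1.1, per the file headers and the submitters' processing notes. The deposited matrix holds log2 values whose scale, centring and direction were found by setting them against the scanner tables: at 55603 of 55603 probes they lay within 0.01 of the log2 processed intensity after 1 shift per array, and the medians of its columns ran from -3.678 to -3.203.

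Each spot's processed intensity was put on the log2 scale, spots of 1 probe were averaged, and the array's 75th percentile was subtracted. Control spots and spots marked as outliers were left out. Probes well above background on at least 2 of 8 arrays were tested (30417). Symbols came from a RefSeq table through accessions, giving 19195 probes and 14774 genes, and for a gene the probe with the highest mean over the 6 mutant arrays was used. Samples were grouped by the labels' genotype and hair phenotype. limma 3.58.1 (R 4.3.3) fitted 3 groups over 8 arrays, with Benjamini-Hochberg adjustment, and a second fit tested the difference between the changes of the 2 numbers. The scripts were tested on simulated data. Other computation and plots used Python 3.11.15, pandas 2.3.3 and matplotlib 3.10.9.

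Named genes were the 12 each way with the largest smaller-of-both change among genes beyond both normal samples in both numbers and with every array of the higher group well above background, the 6 each way with the largest opposite changes, up to 4 genes per list with the highest mean, and Cchcr1. Others are marked as chosen after their values were seen. The samples compared and the gene lists were chosen with earlier results of these data known. Alternatives covered background correction, normalization, the deposited matrix, probe filters, blocks, the size threshold and leaving out each sample. Protein and probe sequences were not used here.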

Additional observations from a re-analysis of the deposited data

Results flagged for a closer look

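In 125 groups of 4 normal skin samples checked for 1 value standing far from the other 3, 8 exceeded Dixon's critical value for the ratio of gap to range, which chance exceeds in about 1 in 20 groups. Normal sample B of Mutant113 was the high one in 5 of them. Sprr2e was at -2.06 there and between -6.38 and -5.77 in the other 3 (ratio 0.859). Chil1 was at 1.0 against -1.17 to -0.92 (0.886), and Klk6 at 4.93 against 1.94 to 2.26 (0.892). Fcgr4 was at -0.69 against -2.01 to -1.92 (0.933), and Cstb, a cysteine protease inhibitor, at 6.05 against 4.64 to 4.84 (0.863). Abra was low in normal sample A of Mutant097, at -1.61 against -0.81 to -0.73 (0.911). Lmod3, an actin filament nucleator of muscle, was high in normal sample A of Mutant113, at 4.52 against 3.01 to 3.15 (0.902). The mean level of the macrophage, dendritic cell and mast cell list was low in normal sample B of Mutant097, at 1.71 against 1.98 to 2.00 (0.922).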

How the results depend on the processing

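The test of hair loss against normal skin called 0 probes in every setting run with all samples, and 0 to 11 when 1 sample was left out. The labels do not say that the title number pairs samples. Deviations of hair loss and normal samples of the same number had r of 0.10, 0.10, 0.02 and 0.21 across probes. With 2 hair loss samples, deviations from their mean mirror each other, so the r across numbers are the same values with the opposite sign. These r are not independent of each other and cannot decide the pairing. Treating the title number as a replicate block gave a count of 0 (smallest limma adjusted p = 0.211, 1899 probes at an unadjusted p under 0.05), and with the slide row as a block 0. Probes higher in both numbered 41 with normexp, 52 with probes well above background on all 8 arrays, 316 at a 1.5-fold threshold, 23 at a log2 threshold of 2 and 3628 by direction alone, and 67 to 225 with 1 normal sample left out. Probes lower in both numbered 23, 66, 564, 14 and 3656 in the same order, and 129 to 266. The difference between the numbers was called at 287 probes with normexp (278 of them negative), 3 with quantile normalization, 4 with probes well above background on all 8 arrays, and 0 to 25 with 1 normal sample left out. The normexp fit used median spot signals and was chosen after seeing the data, since the planned fit on mean signals was not run. The cause of these differences was not tested, except that stricter thresholds and filters count fewer probes by construction.

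Of the changes of single genes recomputed, 811 kept direction and side of the threshold, 9 turned sign and 8 passed the threshold, all 8 without normal sample B of Mutant113. With the slide row as a block, Cchcr1 was -0.014 and Mki67 -0.34. Over the settings that leave out 1 sample, Cchcr1 ran from -0.13 to 0.36, Myh4 from -1.77 to 0.13, Mki67 from -0.095 to 0.51, Mcpt4 from -0.23 to 1.18 and H2-Ab1 from -0.35 to 0.0097. Of the differences between the numbers for single genes, Vmn1r167 (-2.34), Olfr1134 (-6.21) and Cacng6 (-2.56) passed with normexp and Vmn1r167 (-6.96) with quantile normalization. List medians stayed within the spread between replicates in 440 recomputations and moved by more in 43, of which 34 left out a hair loss sample.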
